A study of Homo sapiens with 65 samples.

Results

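Of the 58735 genes in the deposited count table, 9 that make or break down hyaluronan are described here: HAS2, HAS3, UGDH, UGP2, HYAL1, HYAL2, HYAL3, CEMIP and CEMIP2. They were chosen by name for their place in the pathway and looked up by Ensembl identifier; CEMIP2 is the current symbol of TMEM2. All 9 were found in the table, and each was followed over all 16 groups of the study. The question was whether HAS3 or any of the hyaluronidase genes moved when HAS2 was edited or when hyaluronan was digested.

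Hyaluronan is a long, unbranched sugar polymer that hyaluronan synthases (HAS1, HAS2 and HAS3) spin out through the cell membrane from UDP-glucuronate and UDP-N-acetylglucosamine. UGP2 makes UDP-glucose, UGDH oxidises it to UDP-glucuronate, and the hyaluronidases HYAL1, HYAL2 and HYAL3 and the proteins CEMIP and CEMIP2 are linked to its breakdown. In the embryonic heart hyaluronan swells the matrix between muscle and endocardium, the cardiac jelly. Mouse embryos without Has2 lack that jelly, and the zebrafish counterpart of CEMIP2 is needed in the atrioventricular canal.

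RNA was sequenced from 65 libraries of left-ventricular cardioids, which are heart-like aggregates grown from the human induced pluripotent stem cell line WTC-11; each library pooled 8 cardioids. In the genotype arm, 20 wild-type (WT) libraries of 4 line names (WT, WT_TU, cl43_WT_UT and TNT2) were set against 21 libraries labelled HAS2 knockout (KO) from 4 clones (cl4, cl14, cl46 and cl51), at day 1.5 (5 WT, 6 KO), days 2.5 and 4.5 (6 and 6 each) and day 7.5 (3 and 3). In the enzyme arm, untreated cardioids were set against cardioids treated with hyaluronidase, begun at day 1.5 (HAse1.5) or at day 2.5 (HAse2.5). The labels give the treatment as lasting to the day of collection, so it was longer on later days and longer in HAse1.5 than in HAse2.5. Each group had 3 libraries, 1 of each of the lines TNNI1, WT and TNNT2, collected at days 2.5 (no HAse2.5), 4.5 and 7.5. Every group went through the same left-ventricular differentiation, with mesoderm induction to day 1.5, reseeding as aggregates and patterning media with BMP4, FGF2, insulin, the Wnt inhibitor C59 and retinoic acid; the labels call the cells cardiac progenitors up to day 4.5 and cardiomyocytes at day 7.5. Clone cl4 gave 3 of the 6 KO libraries at days 1.5 to 4.5 and 2 of the 3 at day 7.5, so KO libraries are not all separate edits, and p-values measure only the spread between these libraries.

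Total counts per library ranged from 831062 (KO cl4_R1 at day 2.5) to 3574843, with a median of 1570954. The summed CPM (counts scaled to a library total of 1000000) of 5 pluripotency markers had a median of 464 in WT at day 1.5 and 4.89 at day 7.5, and that of 8 cardiomyocyte markers 31.3 and 64614; MYH7 and TNNI1 were at 0 in WT at day 1.5. In the genotype arm the library numbers form 3 blocks, called runs A, B and C here, and the labels do not say what these blocks are. Run A holds 1 library each of WT, WT_TU and cl4 at days 1.5 to 4.5 and WT alone at day 7.5. Run C holds 4 KO and 2 WT libraries at days 1.5 to 4.5, and at day 7.5 it holds 2 KO libraries and no WT. In this arm cl14, cl46, cl51, cl43_WT_UT and TNT2 occur only in run C, and WT and WT_TU only in runs A and B. Genotype and line are thus unbalanced over the runs, and the main fits have no term for run. Where libraries of run A stood apart for HAS2, HYAL2 or UGDH, their values are given with the gene. In bulk RNA, fewer cells of a type and less RNA per cell cannot be told apart.

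Only 5 of the 9 genes (HAS2, UGP2, UGDH, HYAL2 and CEMIP2) had enough reads to enter the tests, in each arm. The kit reads the 3′ end of transcripts, and levels are compared here within a gene and not between genes. Over all 65 libraries HAS2 collected 48528 counts, UGP2 20717, UGDH 5965, CEMIP2 5223 and HYAL2 3530. HYAL1 collected 127, HYAL3 85, HAS3 53 and CEMIP 5.

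**Figure D1:**
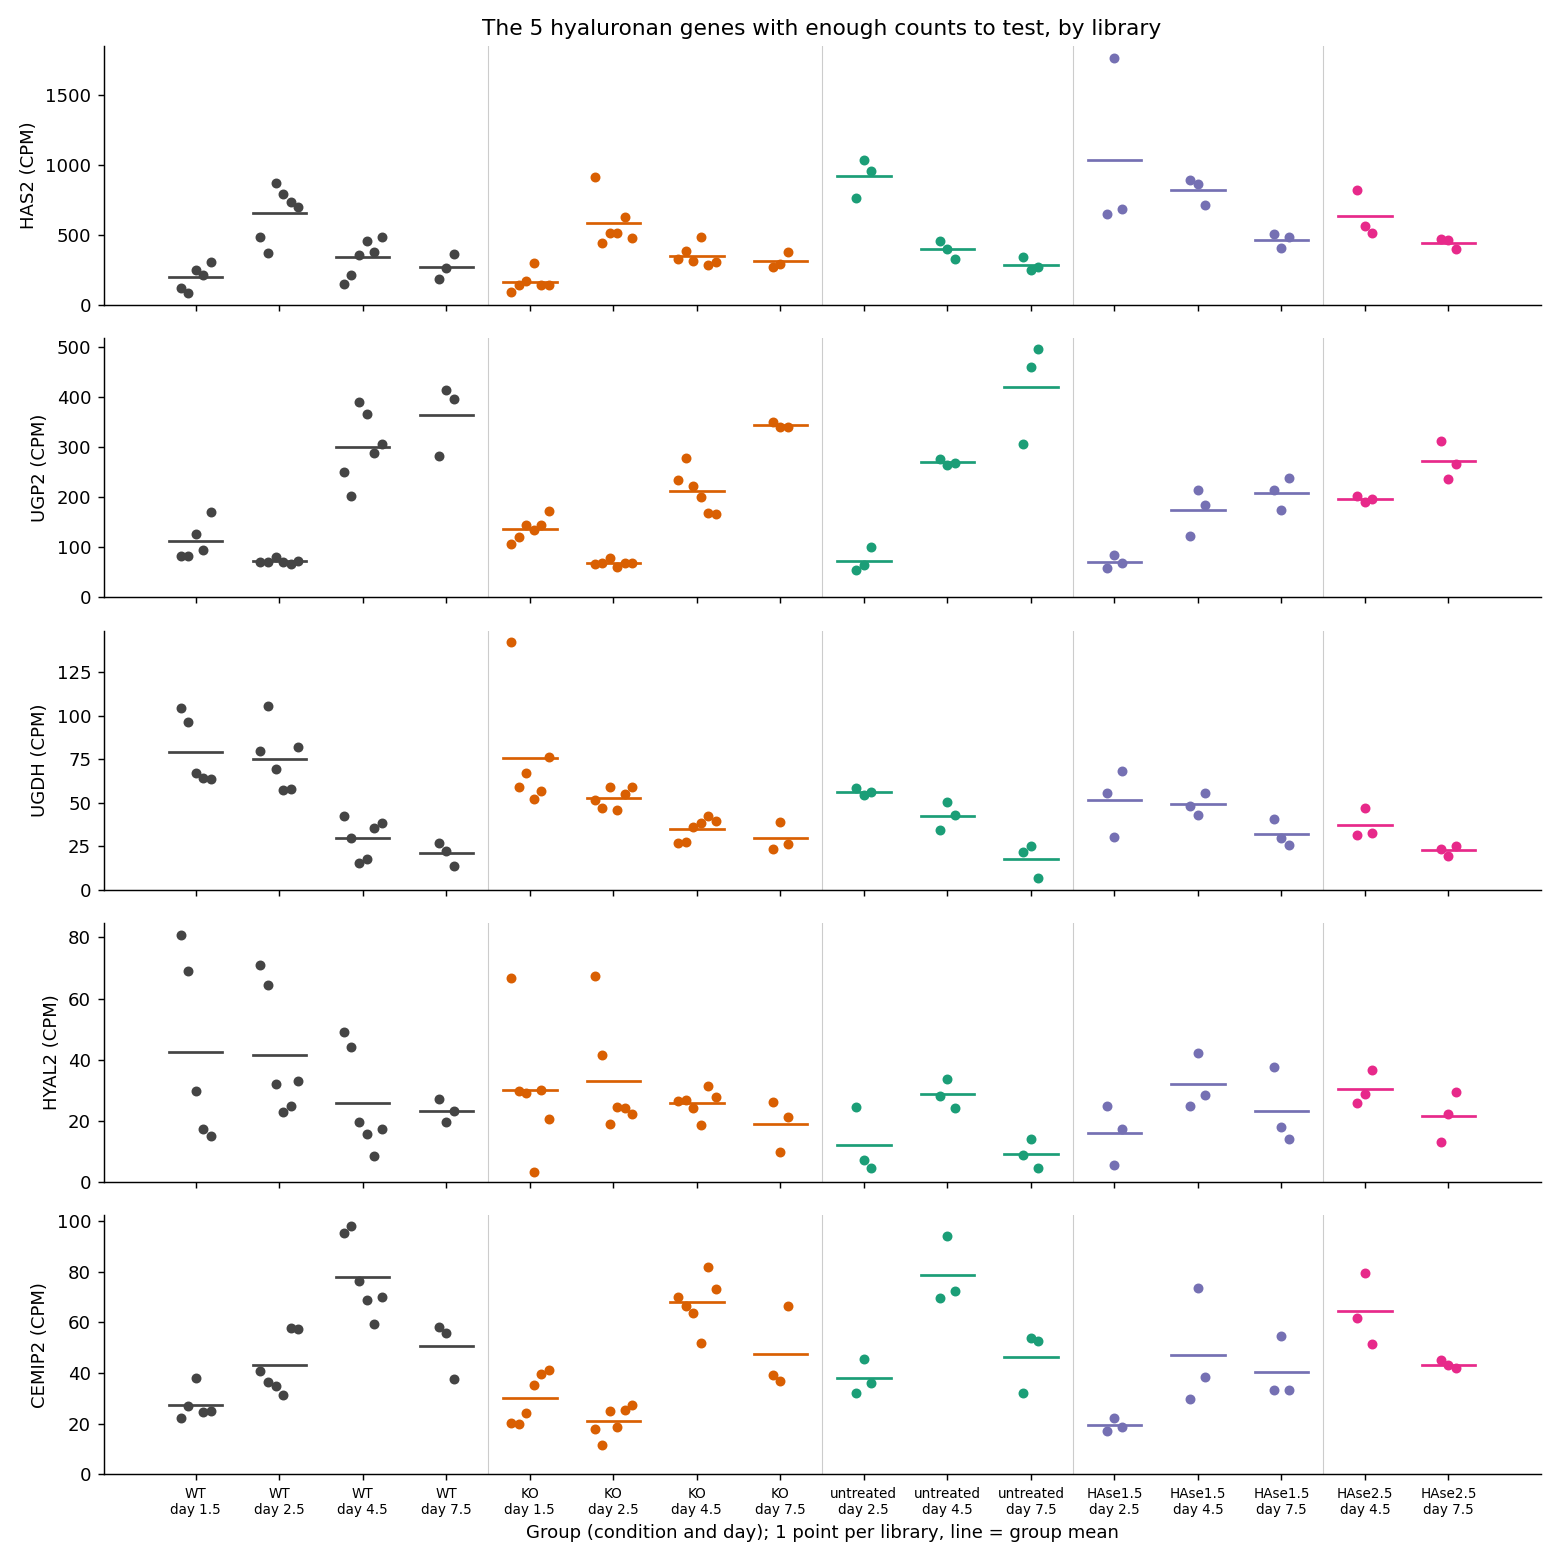
CPM of HAS2, UGP2, UGDH, HYAL2 and CEMIP2 in each of the 65 libraries, by group (condition and day); each point is a library, the line is the group mean, and each panel has its own axis starting at 0. HAS2 peaks at day 2.5, UGP2 is high at days 4.5 and 7.5, UGDH is low there, and CEMIP2 peaks at day 4.5 and is lowest in KO (11.5 to 27.6 CPM) and HAse1.5 (17.2 to 22.4 CPM) at day 2.5.

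CEMIP2 (ENSG00000135048, chromosome 9, 71683366 to 71816690 on GRCh38, minus strand) and UGP2 (ENSG00000169764, chromosome 2, 63840940 to 63891562, plus strand) were the members that passed the test between KO and WT or between enzyme and untreated, and both rose from day 2.5 to day 4.5 in WT and in untreated cardioids. Their promoters are shown for that reason. Each is the 250 bases before the transcription start in RefSeq (GRCh38.p14), 5′ to 3′ on the gene's strand: chr9:71768514-71768763 for CEMIP2 and chr2:63840719-63840968 for the first of 2 UGP2 starts.
CEMIP2: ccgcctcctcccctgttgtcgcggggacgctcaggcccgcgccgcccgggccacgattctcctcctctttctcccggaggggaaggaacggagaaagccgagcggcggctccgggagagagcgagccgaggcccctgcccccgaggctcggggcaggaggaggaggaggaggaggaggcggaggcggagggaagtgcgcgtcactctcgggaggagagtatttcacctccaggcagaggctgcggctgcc
UGP2: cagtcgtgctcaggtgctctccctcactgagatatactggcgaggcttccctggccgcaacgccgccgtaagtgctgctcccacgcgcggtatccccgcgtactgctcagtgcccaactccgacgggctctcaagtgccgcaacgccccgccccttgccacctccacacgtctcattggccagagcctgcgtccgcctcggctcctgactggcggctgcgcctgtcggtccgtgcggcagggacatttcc
Both windows are rich in G and C, at 71.6% and 67.2% of bases. Neither holds a GATA word (GATAA or GATAG after an A or a T, on either strand), a motif bound by the GATA factors of heart progenitors; 22.3% of the 35116 RefSeq promoters have one in the same window. Neither holds TATAAA on either strand, which 10.7% of promoters do. These letters are a description of the windows and say nothing about which factors bind. Of the other members, HYAL2 had 1 GATA word and CEMIP had 1 TATAAA. RefSeq promoters were at hand for 8 of the 9 genes, HAS2 being the exception.

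The synthases were read first. HAS2 (ENSG00000170961, chromosome 8, 121612116 to 121641390, minus strand) makes most hyaluronan in the early heart and is the gene named by the KO label. Its counts were plentiful in the libraries labelled KO, which ranged from 93.9 to 301 CPM at day 1.5 (median 143), 442 to 913 CPM at day 2.5 (median 515), 286 to 485 CPM at day 4.5 (median 319) and 271 to 378 CPM at day 7.5 (n = 3). WT libraries ranged from 87.0 to 309.6 CPM (median 215), 369.9 to 869 CPM (median 716), 149.6 to 482 CPM (median 369) and 187 to 363 CPM (n = 3) on the same days. The runs differed: at day 1.5 the 3 run A libraries (87.0 to 122 CPM) lay below all 8 of runs B and C (139 to 309.6 CPM), and at day 4.5 run A had 149.6 to 328 CPM and the other runs 286 to 485 CPM. At day 2.5 KO lay below both WT libraries in run B (442 against 792 and 869 CPM) and in run C (479 to 628 against 698 and 734 CPM), and above them in run A (913 against 369.9 and 482 CPM), in the library with the smallest total. Run C alone passed (log2 fold change −0.45, edgeR adjusted p 0.00191), while over all runs the value was −0.23 (0.770; −0.37 to −0.14 without 1 library). The groups overlapped on every day over all runs, so the counts do not check the label: a 3′ tag outside an edited part checks nothing, and the place of the edit is not given in the sources used here. Directions below follow the labels.

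HAS3 (ENSG00000103044, chromosome 16, 69105564 to 69118719, plus strand), the synthase asked about beside HAS2, never exceeded 5 counts in a library and was at 0 in 39 of 65. At day 1.5 the KO libraries cl14, cl46 and cl51 held 4, 5 and 3 counts and the 3 cl4 libraries 1, 0 and 1, while the 5 WT libraries held 1, 0, 1, 0 and 1. Pooled, that is 14 counts in KO (1.14 CPM, 95% Poisson interval 0.625 to 1.92) and 3 in WT (0.236 CPM, 0.0487 to 0.690), a ratio of 4.84 with an exact counting interval from 1.35 to 26.3. These intervals cover counting error only, and PCR copies without molecular identifiers are not independent molecules. The 3 clones with more reads all lay in run C, where cl4_R3 held 1 count and the 2 WT libraries 0 and 1. Without the low-count filter the unadjusted edgeR p was 0.0694 and the adjusted p 0.864.

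All 6 KO libraries had 0 HAS3 counts at day 2.5, which allows up to 0.318 CPM, against 4 counts over the 6 WT libraries (0.313 CPM). Without the low-count filter that fall had an unadjusted edgeR p of 0.0387 (adjusted 0.522), smaller than that of the rise at day 1.5. At day 4.5 KO held 10 counts and WT 9, a ratio of 1.36 (0.497 to 3.79), and at day 7.5 KO held 3 and WT 1. In a fit without the low-count filter HAS3 passed in none of 20 comparisons (lowest edgeR adjusted p 0.298). The 2 at an unadjusted p under 0.05 were KO against WT at day 2.5 and the HAse1.5 effect minus the KO effect at day 4.5. HAS3 shares 365 exon bases with CHTF8 on the opposite strand, a gene with 24210 counts in these libraries, and with no strand setting known some of the few HAS3 reads may belong to it.

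In the enzyme arm HAS3 had no count in any of the 9 HAse1.5 libraries, which allows up to 0.233 CPM. The 9 untreated libraries held 7 counts, of which 4 at day 4.5 and 2 at day 7.5 came from the line TNNI1, and the 6 HAse2.5 libraries held 2. A rise of HAS3 under the enzyme was therefore not seen. Pooled, HAS3 was at 0.542 CPM in untreated cardioids (Poisson interval 0.218 to 1.12) and 0 in HAse1.5 (0 to 0.287), so the intervals overlapped narrowly. Without the low-count filter a fall under HAse1.5 was not called at day 4.5 or 7.5 (edgeR adjusted p 0.636 and 0.731). Since most untreated counts came from 1 line, these values do not decide whether HAS3 fell. HAS1, the remaining synthase and not one of the 9, held 12 counts in all: 6 and 3 in the 2 WT libraries of run A at day 1.5, and 2 and 1 in WT_TU of run A at days 2.5 and 4.5. It was at 0 in all 21 KO libraries, which allows up to 0.0821 CPM, in all 24 libraries of the enzyme arm, and in every WT library outside run A. HAS2-AS1, which runs antisense to HAS2 over 201 exon bases, held 0 to 14 counts per library, with 109 counts over WT and 98 over KO.

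Among the degrading enzymes, HYAL1, HYAL3 and CEMIP were also counted too sparsely to test. HYAL1 (ENSG00000114378, chromosome 3, 50299889 to 50312381, minus strand) is a lysosomal hyaluronidase. It had 0, 0 and 0 counts in the 3 WT libraries at day 7.5 and 1, 4 and 5 in the 3 KO libraries, so the groups did not overlap. With WT set at the 3 counts that a pooled 0 allows, the KO level (2.09 CPM) was at least 3.44-fold higher; with the counting error of both groups included, the exact lower limit of the ratio was 2.31.

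Without the low-count filter that difference had an unadjusted p of 0.00336 and an edgeR adjusted p of 0.703. At day 7.5 WT was read in runs A and B but KO in runs B and C; within run B, KO cl4_R2 had 1 count and both WT libraries 0. Untreated cardioids also had 0 in all 3 libraries at day 7.5, HAse1.5 had 2, 1 and 0, and HAse2.5 0, 0 and 0. At days 1.5, 2.5 and 4.5 WT held 15, 17 and 15 HYAL1 counts and KO 14, 15 and 9, with overlapping intervals.

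HYAL3 (ENSG00000186792, chromosome 3, 50292831 to 50299468, minus strand), a relative of HYAL1 with little known activity of its own, held 0 to 7 counts per library, 25 over WT (0.584 CPM, 0.378 to 0.863) and 35 over KO (0.958 CPM, 0.667 to 1.33). It shares exon bases on its own strand with NAA80 (248) and IFRD2 (43), so its few reads are uncertain. CEMIP (ENSG00000103888, chromosome 15, 80779343 to 80951776, plus strand), a secreted protein that binds hyaluronan and promotes its breakdown, was at 0 in 61 of 65 libraries and reached 2 counts in KO cl46_R1 at day 4.5. None of HYAL1, HYAL3 and CEMIP passed in any of the 20 comparisons without the filter (3, 2 and 1 at an unadjusted p under 0.05; lowest edgeR adjusted p 0.297, 0.151 and 0.446).

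**Figure D2:**
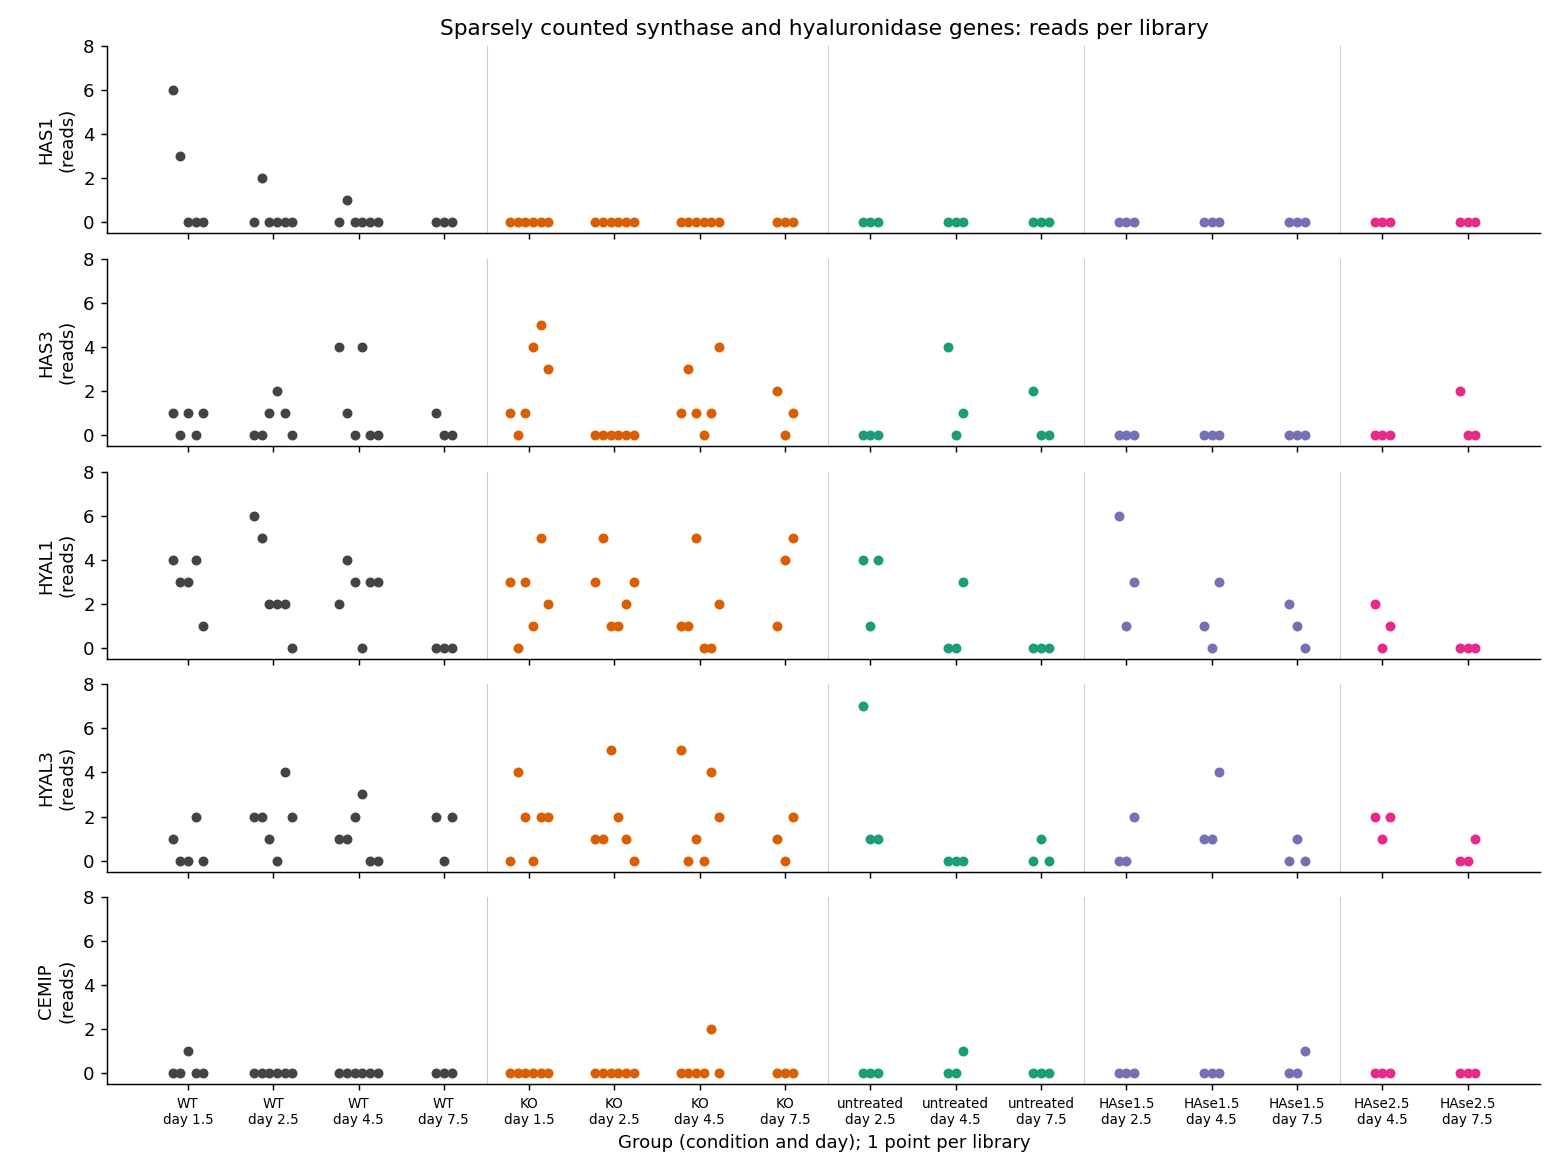
Reads per library of HAS1, HAS3, HYAL1, HYAL3 and CEMIP (vertical axis) by group; each point is a library and nothing was scaled for depth. No library exceeds 7 reads for any of these genes, HAS3 is at 0 in all KO libraries at day 2.5 and in all HAse1.5 libraries, and HYAL1 is at 0 in WT at day 7.5 with 1, 4 and 5 reads in KO.

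CEMIP2, a transmembrane protein at the cell surface that has been linked to hyaluronan breakdown, was the degrading gene that differed between genotypes. At day 2.5 the WT libraries WT_R1 and WT_TU_R1 had 40.7 and 36.4 CPM, WT_R2 and WT_TU_R2 35.0 and 31.4 CPM, and cl43_WT_UT and TNT2 57.6 and 57.5 CPM. The KO libraries cl4_R1, cl4_R2 and cl4_R3 had 18.0, 11.5 and 25.0 CPM, and cl14, cl46 and cl51 had 18.8, 25.5 and 27.6 CPM. Every KO library lay below every WT library, in all 4 clones and within each of the 3 runs, on 15 to 48 counts per KO library.

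CEMIP2 thus fell in KO at day 2.5, its mean being 43.1 ± 11.6 CPM in WT but 21.1 ± 6.07 CPM in KO (SD, n = 6 each). The log2 fold change was −1.07 (SE 0.22, edgeR quasi-likelihood adjusted p 0.00714), and the call held in all 19 alternatives (−1.27 to −0.94; adjusted p 9.54e-05 to 0.0375). It was the only 1 of the 5 tested members to pass in that comparison, in which 0.993% of the 13797 genes tested did. Beside it, the summed CPM of 7 cardiac progenitor markers was 783 to 1038 in KO and 1225 to 2691 in WT, that of 8 cardiomyocyte markers 823 to 1712 and 322 to 2816, and that of 6 primitive streak markers 103 to 174 and 51.5 to 122; their part in the CEMIP2 difference was not tested. MSGN1 and MYH7 were at 0 in both groups and TBXT in WT.

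On the other days CEMIP2 did not pass. At day 1.5 WT libraries ranged from 22.1 to 38.1 CPM (median 24.8) and KO libraries from 19.9 to 41.1 CPM (median 29.5), at day 4.5 from 59.3 to 97.9 CPM (median 73.0) and 52.0 to 81.9 CPM (median 68.3). At day 7.5 WT had 58.0, 55.8 and 37.5 CPM and KO 39.0, 36.8 and 66.4 CPM. At day 1.5 the KO libraries of cl14, cl46 and cl51 (35.1 to 41.1 CPM) lay above every WT library but WT_R2 (38.1 CPM), which cl46 and cl51 also exceeded, and those of cl4 had 19.9 to 24.0 CPM. The groups overlapped on all 3 days, with log2 fold changes of 0.10 (95% interval −0.36 to 0.57), −0.28 (−0.71 to 0.14) and −0.13 (−0.75 to 0.48) and edgeR adjusted p of 0.954, 0.472 and 1. A change of the KO effect over the 4 days was not called for CEMIP2 (F-test in edgeR, adjusted p 0.233, unadjusted 0.0052) or any other member, and 0.674% of genes were called there. At an unadjusted p under 0.05 there were 2 of the 5 members (CEMIP2 and UGP2) beside 1056 of 13797 genes. DESeq2 called none of the 5.

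**Figure D3:**
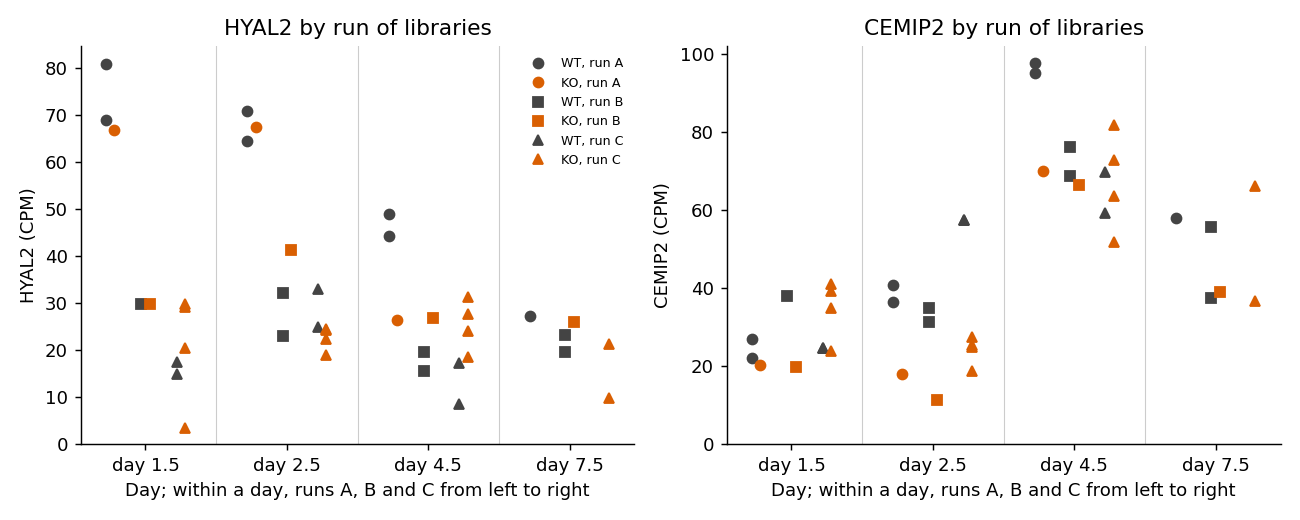
CPM of HYAL2 (left) and CEMIP2 (right) in the 41 libraries of the genotype arm; within each day runs A, B and C stand from left to right, black for WT and orange for KO. CEMIP2 at day 2.5 is lower in KO in each run (the 2 WT libraries of run C, 57.6 and 57.5 CPM, overlie each other), while HYAL2 is high in all 3 run A libraries at days 1.5 and 2.5.

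HYAL2 (ENSG00000068001, chromosome 3, 50317790 to 50322906, minus strand), a hyaluronidase anchored at the cell surface, did not pass between KO and WT on any day. Its level went with the run more than with the genotype: at day 1.5 the 3 run A libraries had 66.8 to 80.8 CPM and the 8 others 3.44 to 29.9 CPM, and at day 2.5 64.5 to 70.8 CPM and 18.9 to 41.4 CPM. At day 4.5 run A had 26.4 to 49.0 CPM and the other runs 8.57 to 31.2 CPM. Total counts in run A were 3248079 to 3574843 at day 1.5 against 1454864 to 2142900 in runs B and C, and 831062 to 3241683 at day 2.5 against 1401841 to 2034263. The part of depth was not tested.

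At day 4.5 the KO libraries of HYAL2 lay above the WT libraries in run B (26.9 against 19.5 and 15.7 CPM) and in run C (18.5 to 31.2 against 8.57 and 17.3 CPM), and below them in run A (26.4 against 49.0 and 44.3 CPM). The pooled log2 fold change of −0.12 (95% interval −1.04 to 0.80, edgeR adjusted p 0.908) was 0.48 with run as a block (adjusted p 0.337) and 0.93 in run C alone (0.285). The other days gave −0.55 (−1.48 to 0.38), −0.44 (−1.35 to 0.47) and −0.35 (−1.70 to 1.00) at days 1.5, 2.5 and 7.5, of which the first became 0.38 in run C alone and the last 0.32 with run as a block. No direction can be given for HYAL2. HYAL2 shares 509 exon bases with TUSC2 on its own strand, a gene with 5028 counts, so reads there may have been left uncounted or assigned to either gene.

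The sugar-supply enzymes came next. UGP2 at day 4.5 had 251 and 202 CPM in the WT libraries of run A, 389 and 366 CPM in run B and 289 and 306 CPM in run C, and in KO 235 CPM (run A), 277 CPM (run B) and 222, 201, 169 and 166 CPM (run C). KO lay below both WT libraries in runs B and C and between them in run A, so the groups overlapped as a whole. UGP2 fell in KO by this test, its mean being 301 ± 70.1 CPM in WT but 212 ± 42.6 CPM in KO (SD, n = 6 each), or −0.57 on the log2 scale (SE 0.16, edgeR adjusted p 0.0413); 3.74% of all genes were called at day 4.5.

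That call was narrow: it held in 6 of 19 alternatives and was lost with RLE size factors (adjusted p 0.0503), without the low-count filter (0.170), in the fit of the 2 groups alone (0.158), when the libraries of a line were summed (0.0679), in run C alone (0.0567) and in 8 of the 12 fits without 1 library (0.0565 to 0.124), while the fold change stayed between −0.68 and −0.48. Those 8 libraries were WT_R1, WT_R2, WT_TU_R2 and TNT2 of WT, and cl4_R3, cl14_R1, cl46_R1 and cl51_R1 of KO. Summed cardiomyocyte markers were 15729 to 41635 CPM in KO and 26948 to 58461 CPM in WT at day 4.5, which overlap. The sum of 6 neural and surface ectoderm markers did not overlap, at 49.8 to 86.9 CPM in KO and 15.6 to 22.2 CPM in WT, with PAX6, SOX1, KRT5 and TP63 at 0 in both groups. The part of these cells was not tested. At day 7.5 UGP2 had 282, 414 and 396 CPM in WT and 350.1, 340.2 and 341 CPM in KO, a log2 fold change of −0.12 (−0.58 to 0.35, edgeR adjusted p 1).

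UGDH (ENSG00000109814, chromosome 4, 39498755 to 39528311, minus strand) did not pass between KO and WT. At day 1.5 the 3 run A libraries had 96.6 to 142 CPM and the 8 others 52.2 to 76.1 CPM. The nearest was day 2.5, where WT ranged from 57.2 to 106 CPM (median 74.4) and KO from 46.0 to 59.1 CPM (median 53.3), overlapping only between 57.2 and 59.1 CPM. The log2 fold change was −0.56 (−1.05 to −0.07) with an edgeR adjusted p of 0.381. At days 1.5, 4.5 and 7.5 it was −0.09 (−0.60 to 0.41), 0.14 (−0.37 to 0.65) and 0.47 (−0.28 to 1.21). At day 7.5 KO had 23.4 to 39.1 CPM and WT 13.6 to 26.7 CPM, which overlap.

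Counted over genotypes, none of the 5 tested members passed at day 1.5 or at day 7.5, where 0% and 0.348% of genes did. At day 1.5 no member, and 591 genes in all, had an unadjusted p under 0.05, and DESeq2 called 0 genes. At day 7.5 again no member had one, beside 763 genes in all, and DESeq2 called none of the 5. The median log2 fold change of the 5 was −0.09, −0.44, −0.12 and −0.12 at days 1.5, 2.5, 4.5 and 7.5, beside 0, 0.0055, −0.03 and −0.0041 over all genes tested. No member passed as higher in KO on any day, though intervals at day 7.5 were wide (UGDH −0.28 to 1.21, HYAL2 −1.70 to 1.00).

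**Figure D4:**
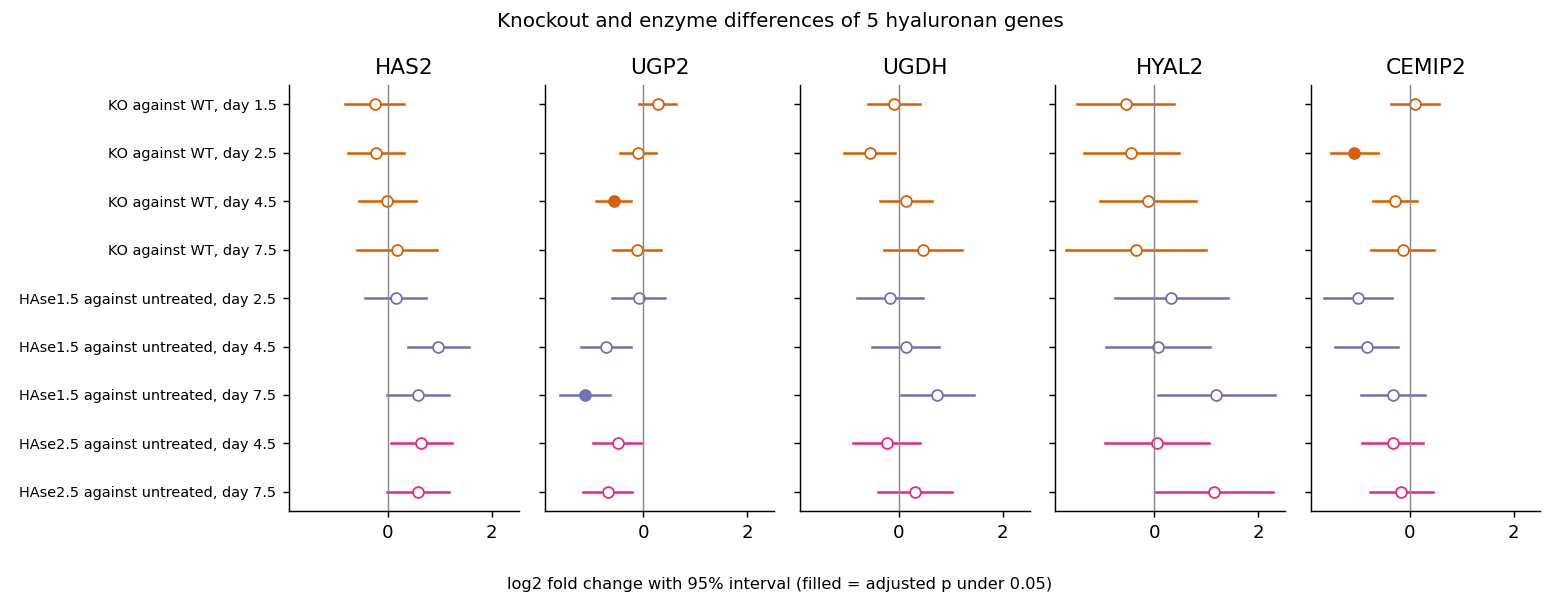
log2 fold changes (horizontal axis) with 95% intervals for 5 members in the 4 comparisons of KO with WT and the 5 of enzyme with untreated; filled points passed an adjusted p of 0.05. Filled points stand for CEMIP2 in KO at day 2.5 (−1.07), UGP2 in KO at day 4.5 (−0.57) and UGP2 under HAse1.5 at day 7.5 (−1.13).

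Digesting hyaluronan with added enzyme gave values on the same genes in other libraries. CEMIP2 at day 2.5 had 32.2, 45.6 and 35.9 CPM in untreated cardioids of the lines TNNI1, WT and TNNT2, and 17.2, 22.4 and 18.7 CPM in HAse1.5 cardioids of the same lines. It was lower in 3 of 3 lines and the groups did not overlap, with a log2 fold change of −0.99 (SE 0.32). Agreement of 3 lines, or groups without overlap, is a description here and below. The share of all genes that did the same was not counted. The edgeR adjusted p was 0.168 without the line in the fit and 0.0459 with line as a block, the first on the far side of the threshold and the second just past it. Without a block 0 of the 5 members passed (none by DESeq2) and 1.14% of 12748 genes did. At an unadjusted p under 0.05 there was 1 member beside 1174 genes.

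Beside this, the summed primitive streak markers were 200.5 to 408 CPM in HAse1.5 and 69.8 to 126 CPM in untreated cardioids at day 2.5, and cardiomyocyte markers 1245 to 1461 and 2655 to 3506 CPM; MSGN1 and MYH7 were at 0 in both groups, TBXT in untreated cardioids and MYH6 and ACTN2 in HAse1.5. Summed pluripotency markers were 229 to 249 and 179 to 223 CPM, also without overlap, with NANOG at 0 in untreated cardioids. The cardiac progenitor markers overlapped, at 851 to 3680 and 1453 to 2126 CPM. The part of these cells in the CEMIP2 values was not tested. In 1 fit of both arms the HAse1.5 effect on CEMIP2 at day 2.5 minus the KO effect was 0.11 (−0.67 to 0.89, edgeR adjusted p 0.995), and without 1 of KO cl4_R2, untreated replicate 1 or HAse1.5 replicate 2 it lay on the other side of 0 (lowest −0.0187).

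At day 4.5 CEMIP2 had 69.6, 94.1 and 72.3 CPM in untreated cardioids, 29.8, 73.5 and 38.4 CPM in HAse1.5 and 61.8, 79.6 and 51.3 CPM in HAse2.5 cardioids of the 3 lines in the same order. Both enzyme groups were below untreated in 3 of 3 lines, though both ranges overlapped with it because the WT line was high throughout. The HAse1.5 log2 fold change of −0.83 (SE 0.29) had an edgeR adjusted p of 0.138, and 0.0319 with line as a block; without HAse1.5 replicate 2 (the WT line) it was −1.29 (0.00911). For HAse2.5 it was −0.32 (−0.91 to 0.27, adjusted p 0.969), and at day 7.5 neither group passed.

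HAS2 itself stood higher under the enzyme in 3 of 3 lines at day 4.5 and at day 7.5, but passed on neither day in the main fit. At day 2.5 it was higher under HAse1.5 in 1 line and lower in 2, with a log2 fold change of 0.15 (−0.44 to 0.73, edgeR adjusted p 0.987). At day 4.5 it had 459, 398 and 331 CPM in untreated cardioids, 893, 862 and 711 CPM in HAse1.5 and 822, 562 and 514 CPM in HAse2.5, with neither enzyme group overlapping the untreated one. The HAse1.5 log2 fold change of 0.97 (0.38 to 1.56) had an edgeR adjusted p of 0.0636, and 0.0464 with line as a block; it passed in 4 of 11 alternatives. HAse2.5 gave 0.64 (0.05 to 1.23, adjusted p 0.636), and 0.40 without HAse2.5 replicate 1.

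Cell type markers differed between the same libraries. At day 4.5 the summed cardiac progenitor markers were 2272 to 3544 CPM in HAse1.5, 1525 to 1988 CPM in HAse2.5 and 1533 to 1574 CPM in untreated cardioids. Pluripotency markers were 81.2 to 94.3, 71.0 to 110.3 and 39.1 to 68.2 CPM in the same order, and endothelial markers 186 to 199.6, 222 to 243 and 132 to 175 CPM. Endoderm markers (13.8 to 32.3 against 48.0 to 169.9 CPM) and epicardial and fibroblast markers (485 to 633 against 712 to 1524 CPM) were lower in HAse1.5 than in untreated cardioids without overlap. AFP, FGB, WT1 and TBX18 were at 0 in HAse1.5, and UPK3B in all 3 groups. NANOG was at 0 in untreated cardioids, and AFP, FGB and ZFP42 in HAse2.5. The part of these cell types in the HAS2 and CEMIP2 values was not tested.

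At day 7.5 HAS2 had 339, 251 and 269 CPM in untreated cardioids, 507, 406 and 483 CPM in HAse1.5 and 469, 464 and 398 CPM in HAse2.5. The fold changes were 0.59 (−0.01 to 1.18) and 0.58 (−0.02 to 1.17) on the log2 scale, with edgeR adjusted p of 0.306 and 0.385. The HAse1.5 effect on HAS2 at day 4.5 minus the KO effect was 0.96 (0.09 to 1.83, adjusted p 0.656). Since these are levels of HAS2 transcripts, they say nothing about how much polymer was made.

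UGP2 fell with early enzyme. At day 7.5 it had 306, 461 and 496 CPM in untreated cardioids but 214, 174 and 239 CPM in HAse1.5 of TNNI1, WT and TNNT2, without overlap. The log2 fold change was −1.13 (SE 0.23, edgeR adjusted p 0.00648); 1 of 5 members passed, where 3.33% of genes did. The call held in 10 of 11 alternatives and was lost in the fit of the 2 groups alone (0.0599).

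Other values of UGP2 lay on the same side without passing in the main fit. In HAse2.5 at day 7.5 it had 313, 237 and 267 CPM (log2 fold change −0.69, −1.16 to −0.21, edgeR adjusted p 0.197), above untreated in TNNI1 and below it in the other 2 lines. At day 4.5 untreated cardioids had 276, 265 and 268 CPM, HAse1.5 122, 213 and 185 CPM (−0.72, −1.20 to −0.24, adjusted p 0.0986; −0.90 and 0.0493 without HAse1.5 replicate 2) and HAse2.5 202, 189.7 and 196 CPM (−0.49, −0.97 to −0.02, adjusted p 0.681). Apart from the fits without 1 library, HAse1.5 at day 4.5 passed in 1 of 5 alternatives (edgeR adjusted p 0.0288). HAse1.5 and HAse2.5 did not differ past the threshold at day 7.5 (−0.44, −0.92 to 0.04, adjusted p 0.919).

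Cardiomyocyte markers were read in the same libraries. Their summed CPM at day 7.5 was 61289 to 71415 in untreated, 30197 to 34170 in HAse1.5 and 38144 to 61856 in HAse2.5 cardioids, and at day 4.5 it was 23677 to 46231, 5039 to 18947 and 17610 to 31638 CPM. None of the 8 genes was at 0 in any of these groups. At day 7.5 endoderm markers were 43.1 to 76.0 CPM in HAse1.5 and 93.2 to 253 CPM in untreated cardioids. Pluripotency markers were 16.3 to 30.7 and 12.1 to 12.6 CPM, and neural and surface ectoderm markers 14.7 to 18.8 and 8.03 to 10.2 CPM. Each was without overlap, but NANOG, SOX2, ZFP42, SOX1, KRT5 and TP63 were at 0 in both groups. AFP and PAX6 were at 0 in HAse1.5, so the low sums rest on few genes. The part of these cell types in the UGP2 result, and in the other day 7.5 values of the enzyme arm, was not tested. The HAse1.5 effect on UGP2 at day 7.5 minus the KO effect was −1.02 (−1.69 to −0.35, edgeR adjusted p 0.362).

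**Figure D5:**
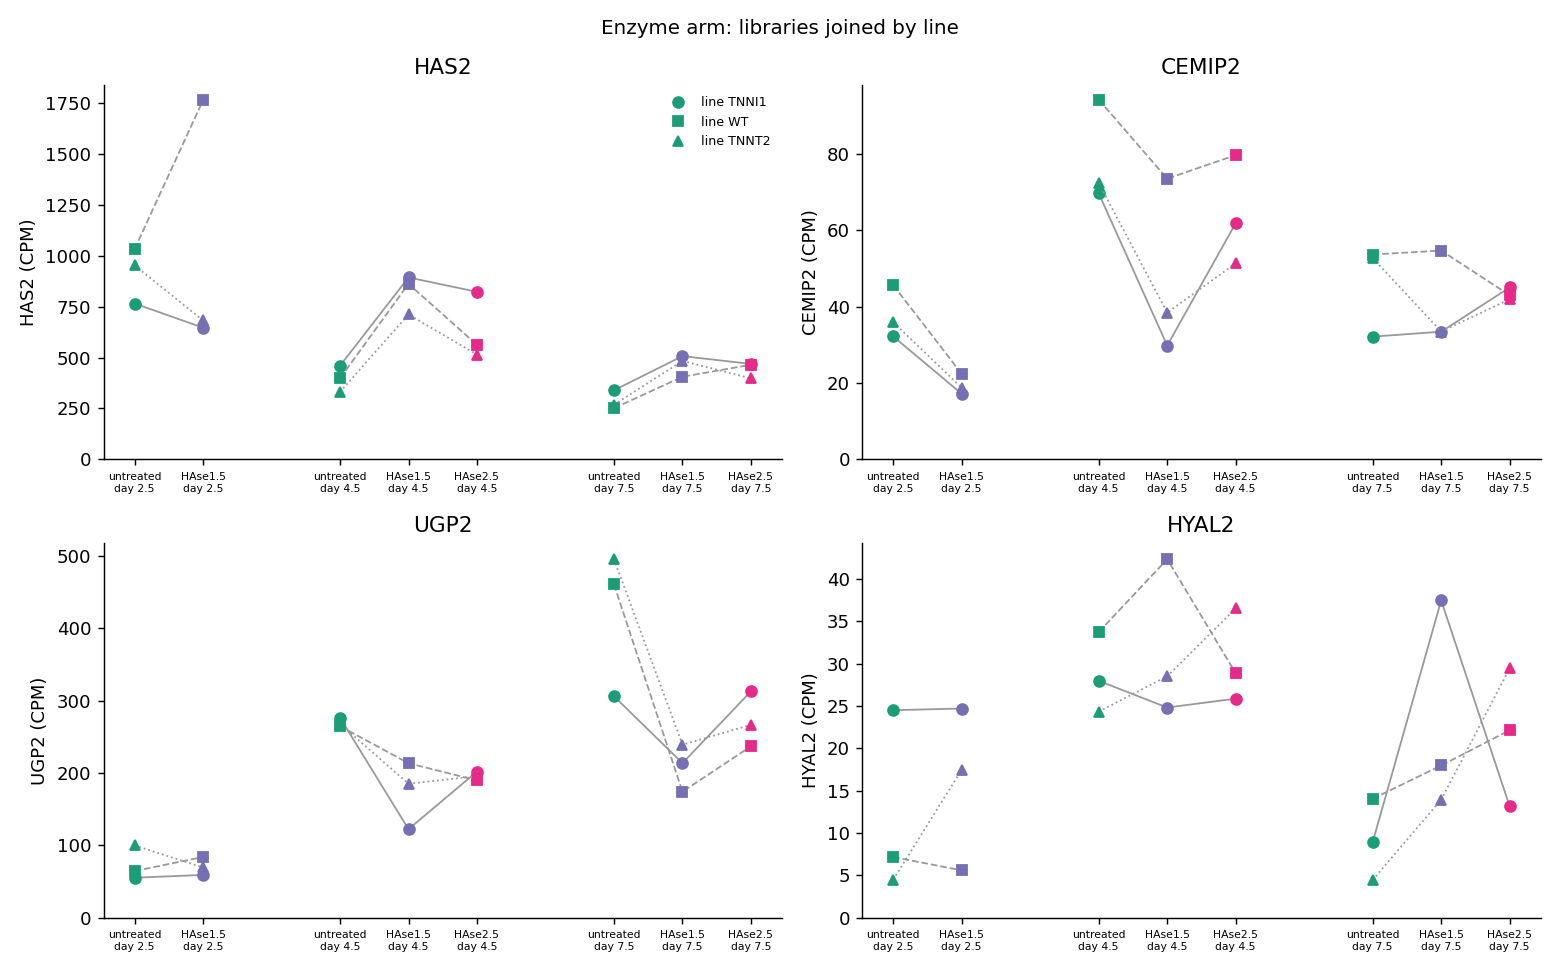
CPM of HAS2, CEMIP2, UGP2 and HYAL2 in the 24 libraries of the enzyme arm; lines join libraries of the same line on the same day (circles TNNI1, squares WT, triangles TNNT2), and colours mark untreated (green), HAse1.5 (purple) and HAse2.5 (pink). CEMIP2 goes down from untreated to HAse1.5 in all 3 lines at days 2.5 and 4.5, UGP2 goes down in all 3 at days 4.5 and 7.5, and HAS2 goes up in all 3 on those 2 days.

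HYAL2 at day 7.5 had 8.92, 14.0 and 4.45 CPM in untreated cardioids, 37.5, 18.0 and 13.9 CPM in HAse1.5 and 13.1, 22.1 and 29.5 CPM in HAse2.5 cardioids. It was higher in 3 of 3 lines under both, on 6 to 22 counts per untreated library, with log2 fold changes of 1.19 (0.07 to 2.32) and 1.16 (0.04 to 2.28) that did not pass (edgeR adjusted p 0.266 and 0.354). The first was 0.67 when HAse1.5 replicate 1 was left out and 1.66 when untreated replicate 2 was. At day 4.5 the 3 groups overlapped, at 24.3 to 33.7, 24.8 to 42.3 and 25.9 to 36.5 CPM. Comparisons of a day share the untreated libraries, so a low untreated group enters both.

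UGDH at day 7.5 had 21.4, 24.9 and 6.68 CPM in untreated cardioids but 40.8, 29.5 and 25.8 CPM in HAse1.5, without overlap, with a log2 fold change of 0.74 (0.04 to 1.44, edgeR adjusted p 0.268); the untreated TNNT2 library held 9 counts, and without it the value was 0.36 (1.08 without untreated replicate 2). Across the enzyme arm, 0 of 5 members passed for HAse1.5 at day 4.5, for HAse2.5 at days 4.5 and 7.5, and between HAse1.5 and HAse2.5 on either day. In the same order 3.48%, 0.22%, 0.659%, 0.361% and 0.00784% of genes passed. At an unadjusted edgeR p under 0.05 there were 3, 2, 2, 0 and 0 members, beside 1763, 895, 1717, 1230 and 720 of 12748 genes. DESeq2 called HAS2 for HAse1.5 at day 4.5 and no member in the other 4. For the difference between the HAse1.5 and KO effects at days 2.5, 4.5 and 7.5, 0 of 5 members passed beside 0.0925%, 0.271% and 0.0925% of 14047 genes. At an unadjusted p under 0.05 there were 0, 1 (HAS2) and 1 (UGP2) members beside 696, 938 and 1035 genes, and DESeq2 called no member.

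From day 1.5 to day 2.5 in WT, 2 of 5 members passed beside 30.1% of genes: HAS2 rose from 197 ± 91.6 to 657 ± 192 CPM (log2 fold change 1.56, SE 0.29, edgeR adjusted p 6.24e-05), and UGP2 fell from 112 ± 37.5 to 71.8 ± 4.87 CPM (−0.83, SE 0.17, adjusted p 0.00027; SD, n = 5 and 6). UGP2 in WT at day 2.5 was even across libraries, at 66.3 to 80.6 CPM. CEMIP2 did not pass (0.46, 0.0032 to 0.92, adjusted p 0.123; 0.65 and 0.0461 with the libraries of a line summed).

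From day 2.5 to day 4.5 in WT, 4 of 5 members passed beside 34.5% of genes. UGP2 rose 2.11 (SE 0.17, edgeR adjusted p 6.96e-13) and CEMIP2 0.90 (SE 0.21, adjusted p 0.000759) on the log2 scale. UGDH fell by 1.28 (SE 0.25, adjusted p 6.33e-05) and HAS2 by 0.92 (SE 0.27, adjusted p 0.00667). HYAL2 changed by −0.61 (−1.51 to 0.29, adjusted p 0.318) and passed with run as a block (−0.70, adjusted p 0.0279). In the members' own levels, UGP2 went from 71.8 to 301 CPM, CEMIP2 from 43.1 to 77.9 CPM and UGDH from 75.4 to 29.9 CPM. The 2 enzymes that act in sequence, UGP2 and UGDH, thus moved in opposite directions, and over the 16 group means of log2 CPM they had a Pearson r of −0.785, given as a description of groups that share days and lines.

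Untreated cardioids of the enzyme arm gave the same step in other libraries. From day 2.5 to day 4.5 UGP2 rose 1.75 (SE 0.24, edgeR adjusted p 1.18e-05), CEMIP2 rose 0.93 (SE 0.29, adjusted p 0.0233) and HAS2 fell by 1.33 (SE 0.29, adjusted p 0.00173) on the log2 scale, 3 of 5 members beside 23% of genes. CEMIP2 lost the call without any of 3 libraries, untreated replicate 1 or 3 at day 2.5 or replicate 2 at day 4.5 (adjusted p 0.0682 to 0.0952). UGDH was at −0.54 (−1.17 to 0.10, adjusted p 0.222) and HYAL2 at 1.07 (0.02 to 2.13, adjusted p 0.135). Without untreated replicate 1 at day 2.5, the TNNI1 library with 24.5 CPM beside 7.15 and 4.49 CPM, HYAL2 was at 2.19 (adjusted p 0.00941).

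From day 4.5 to day 7.5 no member passed in WT (none by DESeq2), where 2.7% of genes did. At an unadjusted p under 0.05 there was 1 member, CEMIP2, beside 1927 of 13797 genes. In untreated cardioids 2 of 5 passed beside 6.37%: UGP2 rose 0.76 (SE 0.23, edgeR adjusted p 0.0468) and UGDH fell by 1.15 (SE 0.34, adjusted p 0.0403). Both calls were lost in the fit of those 2 groups alone and in 5 and 4 of the 6 fits without 1 library, so they rest on the full set of libraries. For UGDH the 4 libraries were untreated replicates 2 and 3 at day 4.5 and 1 and 3 at day 7.5, and for UGP2 replicates 1, 2 and 3 at day 4.5 and 2 and 3 at day 7.5. In WT the same 2 genes were at 0.30 (−0.10 to 0.70) and −0.49 (−1.14 to 0.16), and CEMIP2 at −0.61 in WT (adjusted p 0.271) and −0.64 in untreated (0.177). HYAL2 was at −1.51 in untreated cardioids (adjusted p 0.0896, with −1.97 and 0.0415 without untreated replicate 2 at day 7.5). Apart from the fits without 1 library, that fall passed in 1 of 5 alternatives (edgeR adjusted p 0.00889).

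Ordered by group mean, HAS2 was highest in HAse1.5 at day 2.5 (1030.3 ± 634 CPM, with 1762 CPM in the WT line and 647 and 682 CPM in TNNI1 and TNNT2) and lowest in KO and WT at day 1.5. UGP2 was highest in untreated cardioids at day 7.5 (421 ± 101 CPM) and lowest in KO at day 2.5 (69.0 ± 5.97 CPM). UGDH was highest in WT at day 1.5 (79.2 ± 19.8 CPM) and lowest in untreated at day 7.5 (17.7 ± 9.67 CPM). HYAL2 ran from 42.4 ± 30.5 CPM in WT at day 1.5 to 9.14 ± 4.80 CPM in untreated at day 7.5, and CEMIP2 from 78.7 ± 13.4 CPM in untreated at day 4.5 to 19.4 ± 2.67 CPM in HAse1.5 at day 2.5.

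Of the 15 steps between neighbours in each order, none exceeded the larger of the 2 SDs for HAS2, HYAL2 and CEMIP2. For UGDH 1 did, between WT at day 2.5 and the untreated group at day 2.5, and for UGP2 2 did, below untreated at day 4.5 and below WT at day 1.5. The genes whose 16 group means followed HAS2 most closely were STRA6 (Pearson r 0.939), SLC7A2 (0.922) and NRG2 (0.921). For CEMIP2 they were ENSG00000272330, which has no symbol in the names used, (0.877), GATA4 (0.867) and CDKN1B (0.867). These are descriptions over groups that share days, lines and depth.

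The rest of the sugar supply was followed as a list of 13 genes that includes UGP2 and UGDH, all 13 tested. Between KO and WT, UGP2 at day 4.5 was the only 1 of the 13 called on any day. At days 1.5, 2.5, 4.5 and 7.5, 0%, 0.993%, 3.74% and 0.348% of all genes were called. The list's median log2 fold change was −0.0030, −0.05, −0.41 and 0.0050 on those days, beside 0, 0.0055, −0.03 and −0.0041 over all genes tested. From day 1.5 to day 2.5 in WT none rose and 4 fell (HK1, GNPNAT1, UGP2 and GPI), beside 30.1% of all genes called. From day 2.5 to day 4.5, 4 genes of the list rose in WT and 4 in untreated cardioids, and they were UGP2, HK1, GPI and PGM1 in both sets, beside 34.5% and 23% of all genes called. Over the same step 3 fell in WT (UGDH, GNPNAT1 and GFPT1) and 1 in untreated cardioids (GNPNAT1). HK1 (hexokinase, which phosphorylates glucose) went from 65.9 ± 6.21 to 313 ± 43.2 CPM in WT, GPI (glucose phosphate isomerase) from 135 ± 18.5 to 701 ± 147 CPM, and PGM1 (phosphoglucomutase, one step before UGP2) from 47.3 ± 16.1 to 121 ± 56.3 CPM (SD, n = 6 each); GPI, PGM1 and GFPT1, and GNPNAT1 in the later step, were named after their values were seen. In the enzyme arm 1 of the 13 genes passed for HAse1.5 at day 4.5, beside 3.48% of all genes, and it was GFPT2, which starts the path to UDP-N-acetylglucosamine. It had 6.40 to 10.6 CPM in HAse1.5 and 16.9 to 47.1 CPM in untreated cardioids (log2 fold change −1.83, SE 0.48, edgeR adjusted p 0.0313).

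Of 7 other synthase, hyaluronidase-like and exoglycosidase genes, 3 were tested in the genotype arm and 4 in the enzyme arm, and none passed between KO and WT or under the enzyme; HEXA, a lysosomal subunit that clips sugars from chain ends, rose 0.87 (SE 0.19, edgeR adjusted p 0.000409) on the log2 scale from day 1.5 to day 2.5 in WT, 1 of the 3 beside 30.1% of all genes. Of 20 hyaluronan receptors and binding matrix genes, 10 were tested in the genotype arm and 7 in the enzyme arm. ACAN (aggrecan, a proteoglycan that binds hyaluronan) was the 1 gene of those 10 to pass between KO and WT, at day 4.5, where 3.74% of all genes passed, with 0 to 4.89 CPM in KO and 2.88 to 16.3 CPM in WT (log2 fold change −2.31, SE 0.63, edgeR adjusted p 0.0317). HAPLN1, which links hyaluronan to such proteoglycans, was the 1 gene of the 7 to pass under the enzyme, higher in both enzyme groups on both later days, where 3.48% and 0.22% (day 4.5) and 3.33% and 0.659% (day 7.5) of all genes passed for HAse1.5 and HAse2.5. At day 7.5 it had 70.2 to 76.4 CPM in untreated cardioids, 474 to 766 CPM in HAse1.5 and 246 to 426 CPM in HAse2.5 cardioids, without overlap with untreated (log2 fold changes 2.90 and 2.20, adjusted p 2.75e-07 and 4.92e-05). At day 4.5 the log2 fold changes were 1.18 (adjusted p 0.00386) and 1.09 (0.0415).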

How the data were processed

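RNA of 65 cardioid libraries was read with a QuantSeq 3′ FWD kit, per the labels' protocols. The authors deposited 1 table of raw counts per gene, made with featureCounts (Subread 1.6.2) on hg38/GRCh38 per the submitters' processing notes. The aligner, annotation, strand setting and treatment of multimapping reads are not given in the sources used here. All 58735 identifiers were in GENCODE 29, which gave the positions, and 58207 had a symbol. Of the table's value columns, 4 had no matching sample and were not used.

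CPM are counts scaled to a library total of 1000000. Tests used edgeR 4.0.16 (R 4.3.3) on the deposited counts: filterByExpr with a minimum count of 10, TMM scaling, a robust quasi-likelihood fit with 1 mean per group, and Benjamini-Hochberg adjustment over every tested gene (threshold 0.05). The fits held the 41 libraries of the genotype arm, the 24 of the enzyme arm, or all 65. Log2 values used for likeness between genes had a prior count of 2. DESeq2 1.42.0 and the other alternatives below changed 1 choice at a time. Fits without 1 library kept the dispersion trend of the full fit. The fits were also run on simulated counts of independent libraries, drawn with no effect of run or line. Those simulations do not show how often a true change was missed in the libraries here. All 9 members were named in every group; other lists were counted, with the 2 genes of smallest adjusted p in a comparison named, beside HAS1 and HAS2-AS1; further genes of a list were named after their values were seen, since few passed. The members and lists were chosen with earlier results of these data known.

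Runs A, B and C follow the library numbers and are not named in the labels. In the enzyme arm the replicate number is the line, so the pairing comes from the labels: same-line libraries had deviations correlated over 0.1 in 15 of 21 pairs, and different lines in 5 of 42. In the genotype arm it was 27 of 37 pairs within a run and 7 of 74 between runs. Poisson and other intervals are at 95%. A count of 0 was taken to allow up to 3 counts.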

Additional observations from a re-analysis of the deposited data

Results flagged for a closer look

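Samples far from the others of their group were looked for in 11 genes and 6 groups each, 66 in all, and 4 were found; chance alone picks about 1 in 20 groups. HAS2 in KO at day 1.5 was highest in cl14_R1 at 301 CPM, above 93.9 to 169 CPM in the other 5 libraries. UGDH in KO at day 1.5 was highest in cl4_R1 of run A at 142 CPM, and the 2 WT libraries of run A that day had 105 and 96.6 CPM. ACAN in KO at day 4.5 was highest in cl4_R2 at 4.89 CPM. GFPT2 in WT at day 1.5 was lowest in TNT2 at 8.79 CPM, in a group reaching 17.8 CPM.

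The KO effect on HAPLN1 differed between days by the edgeR F-test of that change (adjusted p 0.0449). Its log2 fold changes were −0.23, −1.01, 0.36 and 1.46 at days 1.5, 2.5, 4.5 and 7.5, none of which passed on its own day (adjusted p 0.940, 0.113, 0.522 and 0.247).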

How the results depend on the processing

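CEMIP2 in KO at day 2.5 stayed past the threshold in all 19 alternatives. The count of members called at KO day 2.5 was 2 in run C alone (CEMIP2 and HAS2). At KO day 4.5 it was 0 with RLE size factors, without the low-count filter, in the fit of the groups compared, with the libraries of a line summed and in run C alone, and 0 to 1 without 1 library. With line as the replicate block it was 1 for HAse1.5 at day 2.5 and 2 at day 4.5, where it was also 2 without the filter, 1 by DESeq2, 1 in the fit of the groups compared and 0 to 2 without 1 library. In the fit of the groups compared it was 0 for HAse1.5 at day 7.5 and 0 for untreated day 7.5 against 4.5, the latter 0 to 2 without 1 library. The block moved no other count of members past 1.5 times. These causes were not tested.

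Only some fold changes were followed through the alternatives. Between KO and WT these left out HAS2 and UGDH on days other than 2.5, and UGP2 at days 1.5 and 2.5. Of those followed, the ones that changed sign were all uncalled. They were HYAL2 at day 1.5 (0.38 in run C), at day 4.5 (0.48 with the block, 0.93 in run C, −0.30 to 0.20 without 1 library) and at day 7.5 (0.32 with the block). For CEMIP2 between KO and WT they were day 1.5 (−0.0121 to 0.21 without 1 library), day 4.5 (0.0369 in run C) and day 7.5 (0.0608 with lines summed, −0.44 to 0.0143 without 1 library). CEMIP2 in HAse1.5 minus KO at day 2.5 ran from −0.0187 to 0.24 without 1 library.

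The counts over all genes moved by more than 1.5 times in these cases, given in the order of days. For KO against WT at days 2.5, 4.5 and 7.5 they were 137, 516 and 48 genes, but 292, 827 and 115 with run as a block. DESeq2 called 232 and 782 at days 2.5 and 4.5, and run C alone 535 and 125. At day 4.5 they were 254 without the filter, 286 with lines summed and 205 in the fit of the groups compared, which gave 193 at day 7.5. The change of the KO effect over days (93) was 416 with the block, 246 by DESeq2 and 46 with lines summed. WT day 7.5 against 4.5 (372) was 851 with the block, 222 without the filter and 192 in the fit of the groups compared, which gave 2754 instead of 4153 for WT day 2.5 against 1.5.

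HAse1.5 against untreated at day 2.5 (145) was 227 with the block, 290 without the filter, 241 by DESeq2 and 90 in the fit of the groups compared, and at day 7.5 (425) it was 713 without the filter, 646 by DESeq2 and 173 in the fit of the groups compared. HAse2.5 at days 4.5 and 7.5 (28 and 84) was 55 and 132 with the block, 165 and 354 without the filter, 86 and 187 by DESeq2, and 201 and 7 in the fit of the groups compared. HAse1.5 against HAse2.5 (46 and 1) was 95 and 13, 296 and 80, and 162 and 39 under the first 3 of these, and 26 at day 4.5 in the last. Untreated day 7.5 against 4.5 (812) was 1279 without the filter, 1235 by DESeq2 and 404 in the fit of the groups compared. The HAse1.5 effect minus the KO effect at days 2.5, 4.5 and 7.5 (13, 38 and 13) was 38, 112 and 54 with the block, 42, 156 and 142 without the filter, 25 and 68 by DESeq2 at days 2.5 and 4.5, and 12 and 45 in the fit of the groups compared at days 4.5 and 7.5. Without 1 library the counts ran from 71 to 148, 234 to 891 and 28 to 40 for KO at days 2.5, 4.5 and 7.5, 140 to 384 for WT day 7.5 against 4.5, 60 to 227, 204 to 495 (from 443) and 147 to 688 for HAse1.5 at days 2.5, 4.5 and 7.5, 0 to 18 and 13 to 408 for HAse2.5, 2 to 294 and 1 to 4 for HAse1.5 against HAse2.5, 278 to 1980 for untreated day 7.5 against 4.5, and 0 to 23, 3 to 77 and 3 to 39 for the HAse1.5 effect minus the KO effect.

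Depth limits HAS3, HYAL1, HYAL3 and CEMIP, whose levels rest on 0 to 7 counts a library.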
